A study of Mus musculus with 9 samples.

Results

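The genes described here carry 2 signals that guide young neurons to their place in the cerebellum: the reelin signal, with Reln, Dab1, Vldlr and Lrp8, and the Cxcl12 signal, with Cxcl12, Cxcr4 and Ackr3. A gene was taken as measured where a probe set named it as its single gene symbol in the platform annotation. All 7 genes were found, on 14 of the 24478 probe sets with 1 symbol, and they are 7 of the 19147 genes tested. Where a gene had several probe sets, the one with the highest mean log2 intensity over all 9 arrays gave its main value, and the others are given beside it.

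Reelin is a large secreted glycoprotein, made in the developing cerebellum chiefly by granule neurons and their precursors. It binds the lipoprotein receptors Vldlr and Lrp8 (also called ApoER2) on Purkinje cells and other neurons, which leads to phosphorylation of the adaptor Dab1 on their inner side. Mice without Reln, without Dab1 or without both receptors leave their Purkinje cells in a deep mass below the cerebellar cortex. Cxcl12 is a chemokine released by the meninges over the brain. It attracts and holds granule neuron precursors, which carry its receptor Cxcr4, in the outer layer of the cerebellum, while Ackr3 (also called Cxcr7) binds the same chemokine and removes it from the surroundings.

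Total RNA from mice of strain C57BL/6 at postnatal day 5 was measured on 1 Affymetrix array per animal. The labels call the tissue brain, and the design text calls it cerebellum. There were 3 groups of 3 arrays, labelled Wildtype, SmoA2 mutant and Smo/Smo mutant. Per the design text, SmoA2 mice carry a transgene for an activated form of Smoothened, the signal-transducing membrane protein of the Sonic hedgehog pathway. A fragment of the Neurod2 promoter that is active in granule neuron precursors drives it. The labels do not say what the Smo/Smo mice carry. The design text names a SmoA1 line of like construction beside SmoA2 and wild type, so by elimination they would be that line, and they are called by their label here. Age and strain were the same in all 3 groups, and the labels give no sex. Smo/Smo animals are numbered in a series of their own, with a code prefix that Wildtype and SmoA2 animals do not have, so source and genotype cannot be told apart in any comparison with Smo/Smo.

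Median intensities of the 9 arrays ran from 91.0 to 95.1. The mean correlation of an array with the others of its group was lowest in SmoA2 replicate 3, at 0.9952. Olfactory and vomeronasal receptor genes, which the cerebellum is not known to use, had log2 intensities of 2.52 to 5.05 (5th to 95th percentile over 1033 probe sets), an indication of background. The main probe set of each of the 7 genes lay well above this range, as did the mean level of the markers of 11 cell types of the region, apart from the microglial marker Itgam. The choroid plexus markers stood apart in Wildtype replicate 3, with a summed intensity of 2051 against 6320 and 6609 in the other Wildtype arrays. Each comparison of the 7 genes with Wildtype is therefore also given without that array.

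The sequences just before the start of Dab1, Cxcl12 and Ackr3, which differed between groups, and of Cxcr4 are shown so that the letters before these starts can be set side by side. RefSeq promoters (GRCm38.p6) were at hand for all 7 genes, as 11 windows, because Dab1 and Vldlr have 2 listed starts and Lrp8 has 3. Each sequence below is the 250 bases before a start, read 5′ to 3′ on the strand of the gene, and the capitals mark matches to GGGCGG or its reverse complement CCGCCC, the GC box bound by Sp-family factors. The first is Cxcl12, chr6:117168285-117168534, plus strand. The second is Ackr3, chr1:90203730-90203979, plus strand. The third is Cxcr4, chr1:128592300-128592549, minus strand. The last are the 2 starts of Dab1, chr4:103619250-103619499 and chr4:104367288-104367537, both plus strand.
Cxcl12: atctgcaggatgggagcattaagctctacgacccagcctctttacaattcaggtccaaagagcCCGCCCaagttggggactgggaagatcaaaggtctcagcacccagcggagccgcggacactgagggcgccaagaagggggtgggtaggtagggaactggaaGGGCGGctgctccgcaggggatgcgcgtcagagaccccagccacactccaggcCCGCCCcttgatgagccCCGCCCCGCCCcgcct
Ackr3: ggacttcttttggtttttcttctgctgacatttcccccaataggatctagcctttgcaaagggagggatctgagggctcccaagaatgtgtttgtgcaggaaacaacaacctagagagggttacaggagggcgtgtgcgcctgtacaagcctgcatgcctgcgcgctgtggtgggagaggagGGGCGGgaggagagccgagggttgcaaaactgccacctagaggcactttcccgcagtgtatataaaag
Cxcr4: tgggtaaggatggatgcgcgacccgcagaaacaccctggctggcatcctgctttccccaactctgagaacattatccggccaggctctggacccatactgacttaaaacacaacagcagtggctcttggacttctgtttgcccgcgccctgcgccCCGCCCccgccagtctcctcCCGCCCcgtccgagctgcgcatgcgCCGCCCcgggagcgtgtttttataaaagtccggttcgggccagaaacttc
Dab1, first start: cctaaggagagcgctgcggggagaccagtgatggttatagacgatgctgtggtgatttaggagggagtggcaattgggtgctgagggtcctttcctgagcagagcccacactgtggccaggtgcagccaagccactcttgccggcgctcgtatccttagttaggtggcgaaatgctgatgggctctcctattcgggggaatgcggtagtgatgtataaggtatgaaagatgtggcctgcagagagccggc
Dab1, second start: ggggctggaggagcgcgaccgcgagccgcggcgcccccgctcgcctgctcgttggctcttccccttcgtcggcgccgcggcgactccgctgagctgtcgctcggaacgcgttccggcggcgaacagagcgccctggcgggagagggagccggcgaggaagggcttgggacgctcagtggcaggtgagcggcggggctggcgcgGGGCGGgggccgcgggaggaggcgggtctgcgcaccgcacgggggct

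The Cxcl12 window held 5 GC box matches, 2 of which overlap by a base, and 1.93% of the 32851 promoters of this length held at least 5. The Cxcr4 window held 3, and 8.47% of promoters held at least 3. The Ackr3 window and the second Dab1 window held 1 each, and the first Dab1 window held none. The Reln window, not printed, held 6, and 0.886% of promoters held at least 6. At least 1 match was found in 6 of the 11 windows, against 32.7% of all promoters. The letters GACCACCCA, the consensus of the Gli factors that act at the end of the hedgehog pathway, were searched on both strands and were in 0 of the 11 windows and in 0.225% of all promoters. These are matches of letters and not tested sites.

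SmoA2 cerebella had less Dab1, Cxcl12 and Ackr3 mRNA than Wildtype cerebella, by 1.41-fold, 1.37-fold and 1.40-fold (limma on all 9 arrays, n = 3 per group, Benjamini-Hochberg adjusted p under 0.05 over all genes). The mean of the receptor Cxcr4 stood 1.36-fold above Wildtype without passing this test. The ligand Reln and its receptors Vldlr and Lrp8 did not pass it either, and each lay within 1.06-fold of Wildtype. In Smo/Smo cerebella none of the 7 genes passed the test.

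Of the 7 genes, 3 were called in SmoA2 against Wildtype, all lower, where 2.69% of all genes were called, 1.73% lower and 0.961% higher. The 3 arrays of 1 group lay wholly apart from the 3 of the other in 4 of the 7 genes (3 lower, 1 higher), and in 19.1% of all genes (10.2% lower, 8.89% higher). The median log2 fold change was -0.08 over the 7 genes and 0.006 over all genes.

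In Smo/Smo against Wildtype limma called 0 of the 7 genes, with 1 at an unadjusted p under 0.05 (Cxcr4), where 0.371% of all genes were called, 0.157% lower and 0.214% higher. The groups lay apart in 2 of the 7 (Ackr3 lower, Cxcr4 higher), and in 15.9% of all genes (8.12% lower, 7.82% higher). In SmoA2 against Smo/Smo, 3 of the 7 were called, all lower in SmoA2, where 2.56% of all genes were called, 1.54% lower and 1.02% higher. The groups lay apart in the same 3 genes, and in 18.2% of all genes (10.1% lower, 8.12% higher). Each pair of comparisons shares arrays, so they are not independent of one another.

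**Figure D1:**
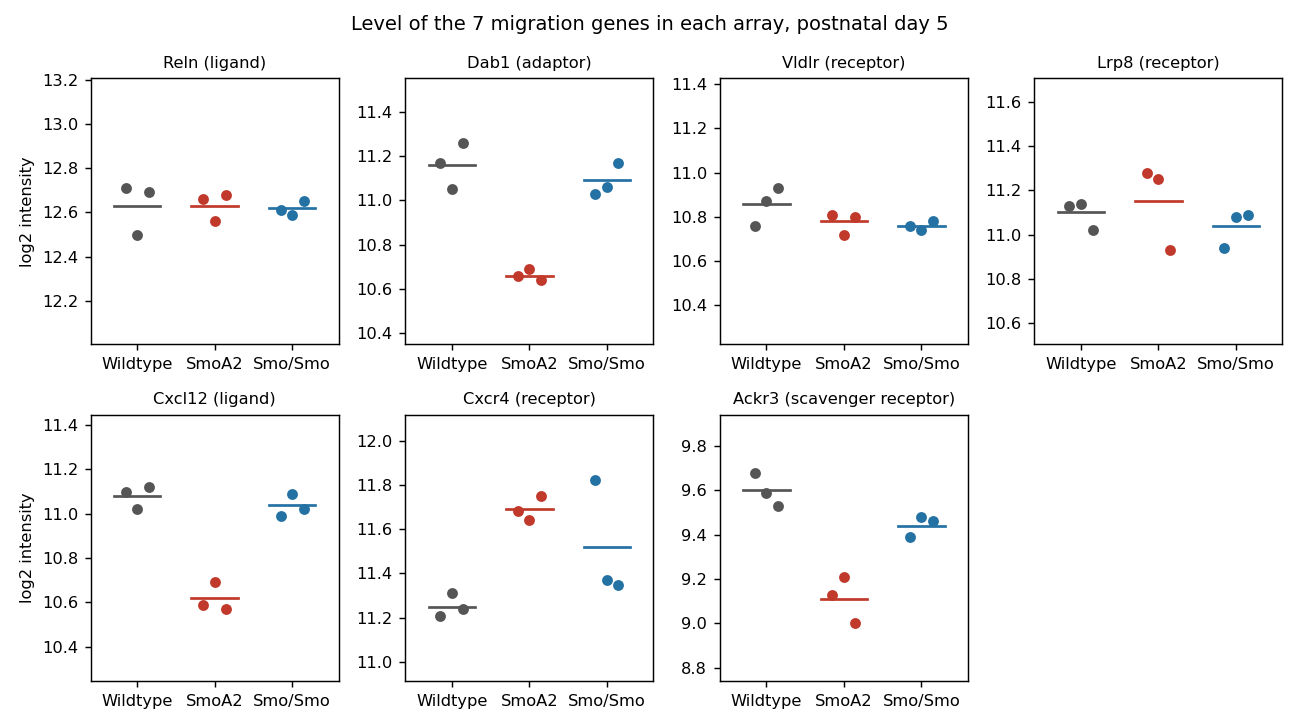
Log2 intensity (y axis) of the main probe set of each of the 7 genes in each of the 9 arrays, by group (x axis), with 1 point per array and a line at the group mean; every panel spans the same log2 range. The SmoA2 points of Dab1, Cxcl12 and Ackr3 lie below all points of the other groups, while the Reln points of the 3 groups overlap.

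Reln, the ligand that starts the reelin signal, had log2 intensities of 12.71, 12.50 and 12.69 in Wildtype, 12.66, 12.56 and 12.68 in SmoA2, and 12.61, 12.59 and 12.65 in Smo/Smo. The 3 groups overlapped, and the Wildtype arrays spanned the values of all the others. The log2 fold change was 0.00 ± 0.07 (SE, n = 3 per group) in SmoA2 against Wildtype, with a 95% interval of -0.16 to 0.16, and -0.01 in Smo/Smo, with an interval of -0.17 to 0.15. A change as large as that of Dab1 lies outside both intervals. Without Wildtype replicate 3 the values were 0.03 and 0.02. The other Reln probe set was dim, with a mean log2 of 5.76, and gave -0.24 (interval -0.57 to 0.09) and -0.15 (interval -0.48 to 0.18) for the same comparisons.

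For Vldlr and Lrp8, the receptors that bind reelin, no difference between groups passed the test on any of their probe sets. Vldlr had log2 intensities of 10.76, 10.87 and 10.93 in Wildtype, 10.81, 10.72 and 10.80 in SmoA2, and 10.76, 10.74 and 10.78 in Smo/Smo. Its log2 fold changes were -0.08 in SmoA2 (interval -0.22 to 0.06) and -0.09 in Smo/Smo (interval -0.23 to 0.05), and its other probe set gave 0.09 and 0.05. The groups overlapped on both probe sets, which pointed opposite ways. Without Wildtype replicate 3 the main probe set gave -0.04 and -0.05. Lrp8 had log2 intensities of 11.13, 11.14 and 11.02 in Wildtype, 11.28, 11.25 and 10.93 in SmoA2, and 10.94, 11.08 and 11.09 in Smo/Smo. SmoA2 replicate 3 was the lowest of the 9 arrays for this gene, and the other SmoA2 arrays were the highest. Its log2 fold change was 0.05 in SmoA2 (interval -0.16 to 0.27) and -0.06 in Smo/Smo (interval -0.27 to 0.16), and 0.02 and -0.09 without Wildtype replicate 3. The other Lrp8 probe set, with a mean log2 of 6.43, read 6.36, 6.51 and 6.47 in Wildtype, 6.42, 6.37 and 6.36 in SmoA2, and 6.45, 6.45 and 6.50 in Smo/Smo. There all 3 SmoA2 arrays lay below the Smo/Smo arrays, by -0.08 on the log2 scale (interval -0.22 to 0.05, limma adjusted p = 0.628), and both mutants overlapped Wildtype (-0.06 and 0.02).

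Dab1, the adaptor that carries the signal from these receptors into the cell, was the 1 gene of the reelin signal that fell in SmoA2. Its log2 intensities were 11.17, 11.05 and 11.26 in Wildtype, 10.66, 10.69 and 10.64 in SmoA2, and 11.03, 11.06 and 11.17 in Smo/Smo. All 3 SmoA2 arrays were below the 6 others, and the Wildtype and Smo/Smo arrays overlapped. The log2 fold change in SmoA2 against Wildtype was -0.50 ± 0.07 (SE, n = 3 per group, limma adjusted p = 0.00625). A second bright probe set of Dab1 also fell, by 0.39 on the log2 scale (adjusted p = 0.0148 with every probe set tested). In SmoA2 against Smo/Smo that probe set stood at -0.29 and was not called (limma adjusted p = 0.0532). On the last Dab1 probe set, with a mean log2 of 7.41, SmoA2 stood at -0.05 (interval -0.32 to 0.22), and the groups overlapped. With the mean of the 3 probe sets the Dab1 log2 fold change was -0.31 (adjusted p = 0.0227) against Wildtype and -0.27 (adjusted p = 0.045) against Smo/Smo.

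In Smo/Smo, Dab1 stood at -0.07 against Wildtype (interval -0.23 to 0.08, limma adjusted p = 0.838), and SmoA2 was lower than Smo/Smo by -0.43 ± 0.07 on the log2 scale (adjusted p = 0.0146). The call of Dab1 against Wildtype survived the omission of any single array (adjusted p up to 0.0331 over 9 fits). Without Wildtype replicate 3 the value was -0.45 (adjusted p = 0.0257), and that of Smo/Smo against Wildtype was -0.02. With that array and SmoA2 replicate 3 both left out, it was -0.44 and not called (adjusted p = 0.0579). The call against Smo/Smo ended without SmoA2 replicate 1 (adjusted p = 0.0524), without Smo/Smo replicate 2 (0.0608) and without Smo/Smo replicate 3 (0.0645).

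Dab1 is at work in Purkinje cells, so their markers are set beside it. The summed intensity of 11 measured Purkinje markers was 27574 to 28314 in Wildtype, 20769 to 24070 in SmoA2 and 27635 to 28342 in Smo/Smo. In SmoA2 against Wildtype, 3 of the 11 fell (Pcp2, Rora and Lhx5), none rose, and 9 were below 0, with a median log2 fold change of -0.44. In this comparison 1.73% of all genes were called lower and 0.961% higher. Among 7 markers of GABAergic interneurons 5 fell, and their summed intensity was 8027 to 8684 in Wildtype and 5691 to 5915 in SmoA2. None of the markers on either list was called in Smo/Smo against Wildtype, where 0.371% of all genes were called. The part of these markers in the Dab1 result was not tested, and in whole tissue fewer cells of a type and less RNA per cell cannot be told apart.

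**Figure D2:**
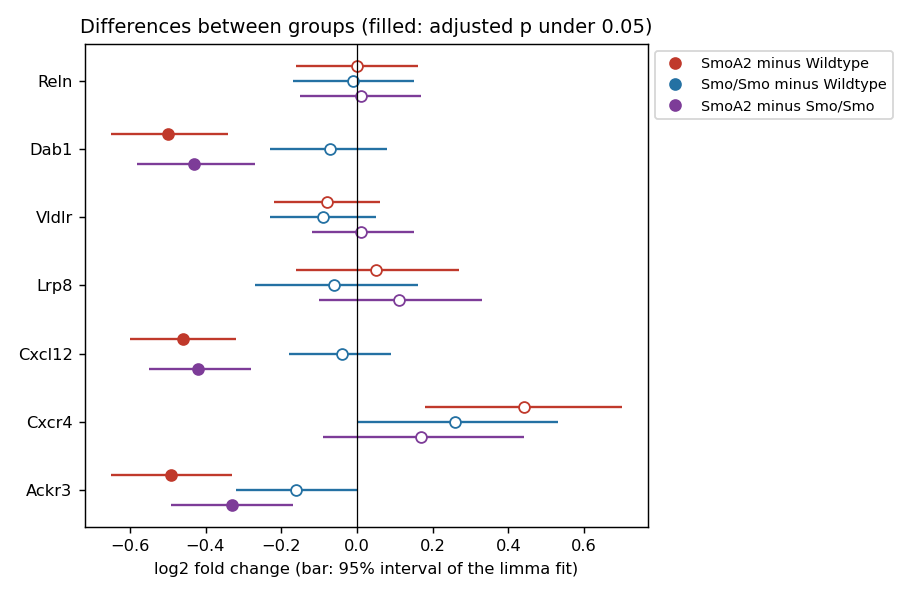
Log2 fold change (x axis) of each of the 7 genes (y axis) in the 3 comparisons, with the 95% interval of the limma fit as a bar and a filled point where the adjusted p was under 0.05. Dab1, Cxcl12 and Ackr3 have filled points below 0 in both comparisons of SmoA2, and no point of Smo/Smo against Wildtype is filled.

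Cxcl12, the chemokine of the second signal, fell in SmoA2. Its log2 intensities were 11.10, 11.02 and 11.12 in Wildtype, 10.59, 10.69 and 10.57 in SmoA2, and 10.99, 11.09 and 11.02 in Smo/Smo. The SmoA2 arrays lay below all 6 others, and Wildtype and Smo/Smo overlapped. The log2 fold change was -0.46 ± 0.06 against Wildtype (SE, n = 3 per group, limma adjusted p = 0.00498) and -0.42 ± 0.06 against Smo/Smo (adjusted p = 0.00966). Smo/Smo stood at -0.04 against Wildtype (interval -0.18 to 0.09, adjusted p = 0.906).

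The other Cxcl12 probe sets gave smaller differences. The second, with a mean log2 of 8.70, stood at -0.24 in SmoA2 (interval -0.42 to -0.06, limma adjusted p = 0.20), with all 3 SmoA2 arrays below Wildtype. The dimmest, with a mean log2 of 6.20, stood at -0.06 (interval -0.22 to 0.10). In SmoA2 against Smo/Smo the second gave -0.30 (limma adjusted p = 0.111) and the dimmest 0.04 (0.861), so neither was called. With the mean of the 3 probe sets Cxcl12 was still called against Wildtype (-0.25, adjusted p = 0.0486) but not against Smo/Smo (-0.22, adjusted p = 0.0816). The call against Wildtype held in all 9 fits that left out 1 array (adjusted p up to 0.0305), and it was -0.44 without Wildtype replicate 3 (adjusted p = 0.0254), where Smo/Smo stood at -0.02. With that array and SmoA2 replicate 3 both left out it was -0.42 and not called (adjusted p = 0.0554). The call against Smo/Smo ended without Smo/Smo replicate 2 (-0.39, adjusted p = 0.0535).

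**Figure D3:**
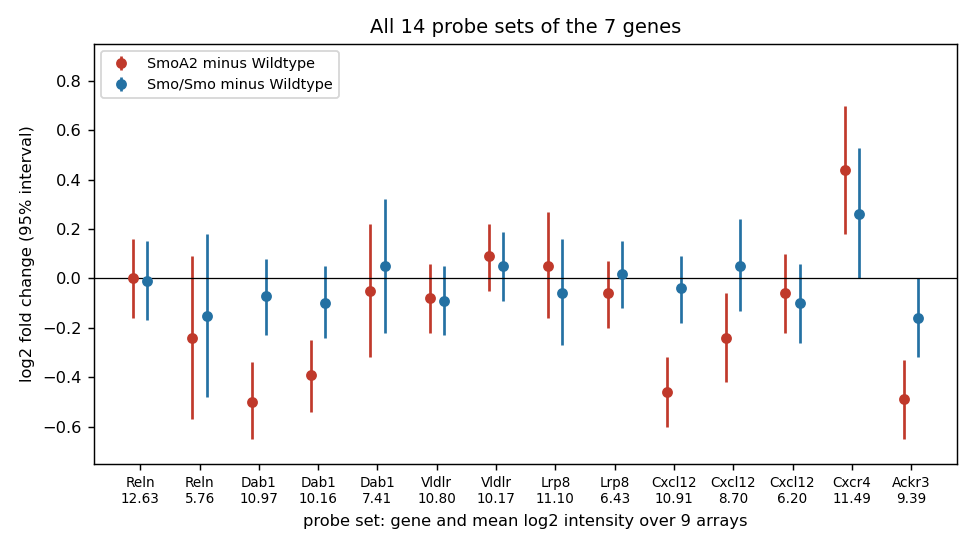
Log2 fold change against Wildtype (y axis) of all 14 probe sets (x axis, with the gene and the mean log2 intensity over 9 arrays), with the 95% interval as a bar; red points are SmoA2 and blue points Smo/Smo. Both bright Dab1 probe sets and the brightest and second-brightest Cxcl12 probe sets lie below 0 in SmoA2. The dimmest probe set of each of these genes lies near 0.

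Ackr3, which takes up Cxcl12 and lowers its level around cells, fell in SmoA2 as well. Its log2 intensities were 9.68, 9.59 and 9.53 in Wildtype, 9.13, 9.21 and 9.0 in SmoA2, and 9.39, 9.48 and 9.46 in Smo/Smo. The groups did not overlap: Wildtype was highest, Smo/Smo lay between and SmoA2 was lowest. The log2 fold change in SmoA2 against Wildtype was -0.49 ± 0.07 (SE, n = 3 per group, limma adjusted p = 0.00801). Smo/Smo stood at -0.16 against Wildtype, with an interval of -0.32 to 0.00 (adjusted p = 0.582), so the step from Wildtype to Smo/Smo did not pass the test.

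The Ackr3 call in SmoA2 against Wildtype held in every alternative fit that was run, with an adjusted p of 0.00139 to 0.0418. Without Wildtype replicate 3 it was -0.52 (adjusted p = 0.0227), and Smo/Smo stood at -0.19 (adjusted p = 0.516). SmoA2 was also lower than Smo/Smo, by -0.33 ± 0.07 on the log2 scale (limma adjusted p = 0.0478). Close to the threshold as it was, this call was kept without SmoA2 replicate 2 and ended when any other of the 9 arrays was left out (adjusted p 0.0667 to 0.172). It also ended with only the 2 groups in the fit (adjusted p = 0.11), with Xist level as a covariate (0.0813) and with every probe set tested (0.0538). Further settings that ended it were the most variable probe set of each gene (0.062), Wildtype and SmoA2 replicate 3 both left out (0.106) and the stricter threshold of 0.01.

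Cxcr4, the receptor through which granule neuron precursors follow Cxcl12, stood higher in SmoA2, but the difference did not pass the test. Its log2 intensities were 11.21, 11.31 and 11.24 in Wildtype, 11.68, 11.64 and 11.75 in SmoA2, and 11.82, 11.37 and 11.35 in Smo/Smo on its only probe set. Every SmoA2 and every Smo/Smo array was above every Wildtype array, and Smo/Smo replicate 1 was the highest of all 9. The SD of Cxcr4 was 0.049 in Wildtype, 0.054 in SmoA2 and 0.266 in Smo/Smo. The log2 fold change in SmoA2 against Wildtype was 0.44 ± 0.12 (SE, n = 3 per group, limma adjusted p = 0.0941, interval 0.18 to 0.70).

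Whether Cxcr4 was called in SmoA2 differed with the arrays, the variance model and the genes kept in the fit. Smo/Smo replicate 1 enters the shared estimate of the spread. Without that array the value was again 0.44 and was called (limma adjusted p = 0.00984). It was also called with only SmoA2 and Wildtype in the fit (adjusted p = 0.0294), with an intensity trend and robust variances (0.0275) and with dim genes left out (0.0493). Without Wildtype replicate 3 Cxcr4 stood at 0.43 in SmoA2 (adjusted p = 0.198) and 0.26 in Smo/Smo (adjusted p = 0.626). Over the alternatives its adjusted p in SmoA2 ran from 0.00984 to 0.327. In Smo/Smo against Wildtype Cxcr4 stood at 0.26 (interval 0.00 to 0.53, adjusted p = 0.566), and at 0.11 without Smo/Smo replicate 1 (adjusted p = 0.798). SmoA2 against Smo/Smo gave 0.17 (interval -0.09 to 0.44), and 0.33 without that array (adjusted p = 0.0699).

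Markers of the cells that make or receive this chemokine are set beside these results. The summed intensity of 17 markers of meninges and fibroblasts was 20967 to 21529 in Wildtype, 14538 to 17368 in SmoA2 and 19840 to 20381 in Smo/Smo. In SmoA2 against Wildtype 9 of the 17 fell, none rose, and 16 were below 0, with a median log2 fold change of -0.46. Of all genes, 1.73% were called lower and 0.961% higher in SmoA2 against Wildtype. Markers of endothelial cells, which also carry genes of this axis, summed to 9018 to 9232 in Wildtype, 8000 to 8451 in SmoA2 and 9668 to 10176 in Smo/Smo, with 2 of 11 lower in SmoA2 (Kdr and Tek). Markers of the choroid plexus summed to 2051 to 6609 in Wildtype, 8790 to 10392 in SmoA2 and 10553 to 12141 in Smo/Smo. Against Wildtype 0 of the 11 were below 0 in either mutant, with a median log2 fold change of 1.43 in SmoA2 and 1.72 in Smo/Smo. These medians include Wildtype replicate 3, the array at 2051. None of the 11 was called, where 2.69% of all genes were called in SmoA2 and 0.371% in Smo/Smo against Wildtype. None of the meningeal or endothelial markers was called in Smo/Smo against Wildtype, where 0.371% of all genes were called. Markers of Bergmann glia and astrocytes summed to 39921 to 41766 in Wildtype, 35623 to 37226 in SmoA2 and 39846 to 41132 in Smo/Smo. In SmoA2 against Wildtype 3 of these 12 fell (Gdf10, Gjb6 and Wif1), none rose, and 11 were below 0, with a median log2 fold change of -0.21. The part of the meningeal, endothelial, choroid plexus and glial markers in the Dab1, Cxcl12 and Ackr3 results was not tested.

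For Cxcr4 the markers of granule neuron progenitors are given. Their summed intensity was 38303 to 39274 in Wildtype, 37532 to 39784 in SmoA2 and 38180 to 40441 in Smo/Smo, and these sums overlapped. The mean log2 level of the same markers, in which each gene weighs the same, did not overlap with Wildtype: it was 11.21 to 11.28 in Wildtype, 11.36 to 11.51 in SmoA2 and 11.32 to 11.38 in Smo/Smo. Of all genes taken singly, 19.1% did not overlap with Wildtype in SmoA2 and 15.9% in Smo/Smo. Of the 10 measured, 3 rose in SmoA2 against Wildtype (Atoh1, Gli1 and Ccnd1), where 0.961% of all genes were called higher. None was called lower, where 1.73% of all genes were, but 4 of the 10 were below 0. The median log2 fold change was 0.09. In Smo/Smo against Wildtype none was called, where 0.371% of all genes were. There 4 of the 10 were below 0, and the median was 0.01. The part of these progenitor markers in the Cxcr4 values was not tested.

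**Figure D4:**
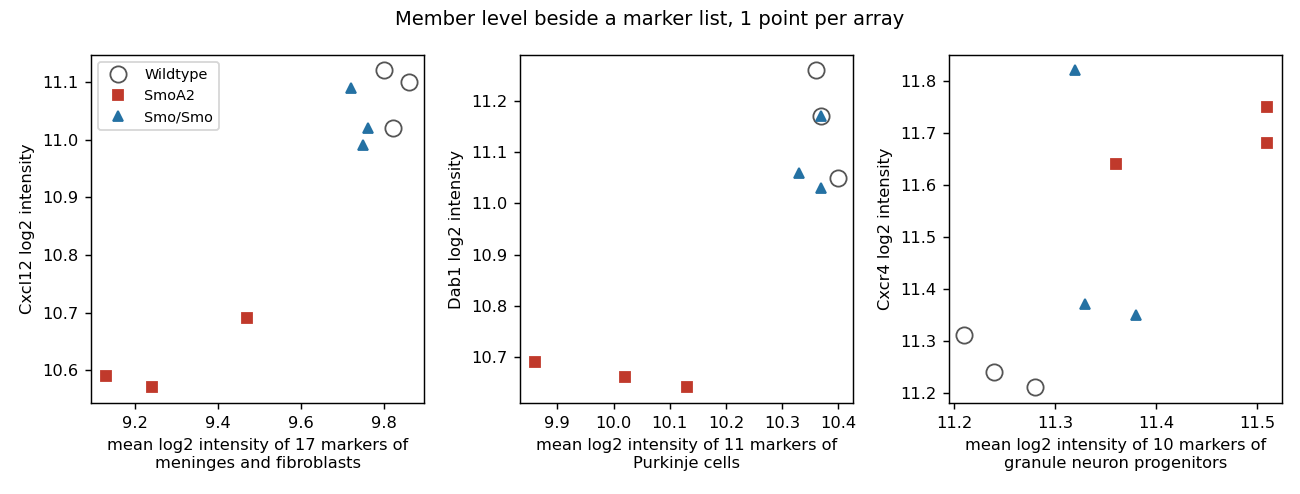
Log2 intensity of Cxcl12, Dab1 and Cxcr4 (y axes) against the mean log2 intensity of the markers of meninges and fibroblasts (17), Purkinje cells (11) and granule neuron progenitors (10) on the x axes, with 1 point per array. In the first 2 panels the 3 SmoA2 arrays (red squares) lie at the lower left, apart from Wildtype (open circles) and Smo/Smo (blue triangles), and in the panel on the right a Smo/Smo array has the highest Cxcr4 value.

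Genes that act around the ligand and receptors of the reelin signal included proteases that fell in SmoA2. Of 17 measured in this list, 3 fell and none rose in SmoA2 against Wildtype, where 1.73% of all genes were called lower, with a median log2 fold change of -0.06 against 0.006 over all genes. The count was 1 to 4 with 1 array left out (1 without Wildtype replicate 1 or 2) and 0 to 5 over the other settings, with 0 in the fit lacking both Wildtype replicate 3 and SmoA2 replicate 3. Adamts3, a protease that cuts and inactivates reelin, had log2 intensities of 10.67, 10.59 and 10.66 in Wildtype, 10.14, 10.09 and 9.97 in SmoA2, and 10.58, 10.68 and 10.79 in Smo/Smo. SmoA2 lay below the other groups, with -0.57 ± 0.07 against Wildtype (limma adjusted p = 0.00444) and -0.62 ± 0.07 against Smo/Smo (adjusted p = 0.00349). Both calls of Adamts3 held in all 9 fits that left out 1 array (adjusted p up to 0.0269 and 0.0213), and the first ended with Wildtype replicate 3 and SmoA2 replicate 3 both left out (0.0522).

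Adamts4, another protease that can cut reelin, fell by 0.49 on the log2 scale against Wildtype (limma adjusted p = 0.0126) and by 0.42 against Smo/Smo (0.0277). The first call ended without Wildtype replicate 1 or 2 (adjusted p 0.0566 and 0.0537), and the second in 7 of 9 fits (up to 0.104), being kept without Wildtype replicate 3 and without SmoA2 replicate 1. Efnb2, a membrane ligand of Eph receptors, fell by 0.40 on the log2 scale against Wildtype (adjusted p = 0.0252). That call ended in 5 of 9 fits, with a highest adjusted p of 0.108: those lacking any of the Wildtype arrays, SmoA2 replicate 3 or Smo/Smo replicate 2. In Smo/Smo against Wildtype limma called 0 of the 17, where 0.371% of all genes were called. There 2 of the 17 had an unadjusted p under 0.05, and the share of all genes at that p was not worked out.

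Genes that relay the reelin signal inside the cell were called about as often as all genes. Of 30 measured, which include the kinases Fyn and Src, the adaptors Crk and Crkl, and the microtubule genes Pafah1b1 and Dcx, 1 fell in SmoA2 against Wildtype and none rose, where 2.69% of all genes were called, with a median of -0.04. Dab2ip, a Ras GTPase-activating protein that binds Dab adaptors, fell by 0.31 on the log2 scale (limma adjusted p = 0.0426). That call was kept without SmoA2 replicate 2 and ended when any other array was left out (adjusted p 0.0729 to 0.147). In Smo/Smo against Wildtype, and in SmoA2 against Smo/Smo, limma called 0 of the 30, where 0.371% and 2.56% of all genes were called. In each, 1 of the 30 had an unadjusted p under 0.05, and the share of all genes at that p was not worked out.

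Among genes that act around Cxcl12 and its receptors, 1 of 10 measured fell in SmoA2 against Wildtype and none rose, where 1.73% of all genes were called lower, with a median of -0.08. With so few genes, 1 call does not set the list apart from all genes. Every SmoA2 array lay below every Wildtype array in 4 of the 10, and above in 0. Among all genes these shares were 10.2% and 8.89%. Before adjustment the limma p of SmoA2 against Wildtype was below 0.05 for 4 of the 10. How many of all genes reached that p was not worked out. Foxc1, a transcription factor needed to form the meninges, fell by 0.47 on the log2 scale against Wildtype (limma adjusted p = 0.0231) and by 0.47 against Smo/Smo (0.0278), and it is also 1 of the 17 meningeal markers. Its log2 intensities were 9.39, 9.36 and 9.38 in Wildtype, 8.71, 9.07 and 8.94 in SmoA2, and 9.40, 9.31 and 9.40 in Smo/Smo. SmoA2 lay below the other groups, yet the call against Wildtype ended when any Wildtype array or SmoA2 replicate 3 was omitted (highest adjusted p 0.0929), and the call against Smo/Smo in 6 of 9 fits, lacking Wildtype replicate 1 or 2, SmoA2 replicate 3 or any Smo/Smo array (highest 0.102). In Smo/Smo against Wildtype limma called 0 of the 10, with 0 at an unadjusted p under 0.05, where 0.371% of all genes were called.

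Of genes that relay signals from Cxcr4 and Ackr3 inside the cell, such as G protein subunits, arrestins and small GTPases, 24 were measured. In SmoA2 against Wildtype, Smo/Smo against Wildtype and SmoA2 against Smo/Smo limma called 0 of them. Of all genes it called 2.69%, 0.371% and 2.56%. In the list 4, 1 and 1 had an unadjusted p under 0.05, and the share of all genes at that p was not worked out. The median log2 fold change in SmoA2 against Wildtype was 0.0, against 0.006 over all genes. The lowest p values belonged to Elmo1, a partner of Rac activation, and Pik3cg, a lipid kinase subunit. Elmo1 stood at -0.21 ± 0.06 in SmoA2 (adjusted p = 0.139), and was called with an intensity trend and robust variances (adjusted p = 0.0479), the 1 call in this list over the alternatives. Its other probe sets gave -0.11 and -0.38 (adjusted p = 0.588 and 0.30 with every probe set tested). Pik3cg stood at -0.27 in SmoA2 and -0.31 in Smo/Smo (adjusted p = 0.281 and 0.429).

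The genes whose log2 level across the 9 arrays was most like that of a member were looked up among 11449 others with a mean log2 of at least 6, by Pearson correlation. The 9 arrays share 3 group means, so these values describe the pattern and carry no p. Cxcl12 was most like Pdgfc, a growth factor gene (0.989), Aldh1a2, the retinoic acid enzyme of the meninges (0.984), and Nphs1 (0.984). Aldh1a2 is also 1 of the 17 meningeal markers, and stood at -1.57 in SmoA2 and -0.06 in Smo/Smo. Dab1 was most like Gcnt2 (0.987), Id4, an inhibitor of bHLH factors (0.984), and Strip2 (0.982).

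Ackr3 was most like Amigo2 (0.980), Flt3 (0.980) and Gbf1 (0.978). Cxcr4 was most like Cavin2 (0.917), Kirrel3 (0.913) and Stk32c (0.907), all with a difference above 0 in SmoA2. Reln was most like Fmnl2 (0.967), Abce1 (0.966) and Setdb1 (0.957), none of which differed from Wildtype by more than 0.09 in either mutant. Lrp8 was most like Asb7 (0.980), Zfp770 (0.977) and Zfp146 (0.968), and Vldlr was most like Bcorl1 (0.922), Slc35d3 (0.893) and Nek9 (0.884). Between members, the correlation over the 9 arrays was 0.97 for Dab1 with Cxcl12, 0.94 for Cxcl12 with Ackr3 and 0.91 for Dab1 with Ackr3. With the group means taken out these were 0.53, 0.60 and 0.14, so most of the likeness between these members lay between the groups. Larger values without group means were found in other pairs, among them 0.84 for Lrp8 with Ackr3 and -0.75 for Vldlr with Ackr3. Over the 9 arrays those pairs stood at -0.02 and 0.23. For a member and the first gene named as like it, the value without group means was higher than for the pairs among Dab1, Cxcl12 and Ackr3. It was 0.99 for Reln, 0.98 for Lrp8, 0.87 for Vldlr, 0.86 for Dab1, 0.86 for Cxcl12, 0.79 for Ackr3 and 0.76 for Cxcr4. Those genes were picked by their correlation over the same arrays.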

How the data were processed

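The values are probe set intensity, which the authors deposited and which were summarised by RMA per the submitters' processing notes, with no version given; other upstream steps are not given in the sources used here. They are on a linear scale, and their log2 was taken before each test. Of 38385 probe sets, 24478 had 1 gene symbol, 65 several and 13842 none, in the platform annotation, which stood for 19147 genes.

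All genes were fitted together (limma 3.58.1 under R 4.3.3, functions lmFit and eBayes) with 1 coefficient for each of the 3 groups and no covariate, and p-values were adjusted by Benjamini-Hochberg over all 19147 genes. Intervals use the model's 9.11 moderated degrees of freedom. The labels name separate animal codes, and p-values measure the spread between those animals. Precision is limited by the number of arrays. On simulated data for SmoA2 against Wildtype (19147 genes, 10 runs, 200 changed genes), the share recovered was 55.6% for genes shifted by 0.5 (log2) and 92.9% for genes shifted by 1, with 5.58% false calls.

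The members, pathway lists, markers and alternatives were chosen with earlier results of these data known. Named were all 7 members with every probe set, up to 4 called genes per pathway list (or the 2 with the smallest p) and the 3 genes most like each member. Of the 98 pathway genes listed, 81 were measured, and the others were not analysed here. The alternatives were the most variable probe set, probe set means, all probe sets tested singly, removal of dim genes, 2 normalizations, another variance model, array weights, only the groups compared, Xist level as a covariate, a stricter threshold and arrays left out. Plots used matplotlib 3.10.9 (Python 3.11.15).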

Additional observations from a re-analysis of the deposited data

Results flagged for a closer look

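Dab1, Cxcl12 and Ackr3 are listed here because their effects in the 2 mutant lines differed by a direct test, SmoA2 against Smo/Smo in limma with p adjusted over all genes. Dab1 gave -0.43 on the log2 scale (adjusted p = 0.0146), with all 3 SmoA2 arrays below all 3 Smo/Smo arrays. Cxcl12 gave -0.42 (adjusted p = 0.00966), again with no overlap. None of the other probe sets of Dab1 and Cxcl12 was called in this comparison. Ackr3 gave -0.33 (adjusted p = 0.0478), with no overlap, and its Smo/Smo arrays lay below Wildtype as well. Over 21 alternatives, the stricter threshold among them, the call ended in 4 for Dab1, 2 for Cxcl12 and 14 for Ackr3. Groups did not overlap in this comparison in 18.2% of all genes. Source and genotype cannot be told apart for Smo/Smo.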

How the results depend on the processing

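No paired analysis was possible because the replicate numbers follow accession order and pair no animals across groups. The 7 genes gave 3 calls in SmoA2 against Wildtype, with 3 to 4 called when 1 array was left out, and 1 with Wildtype replicate 3 and SmoA2 replicate 3 both left out. SmoA2 against Smo/Smo also gave 3 calls, with 0 to 3 when 1 array was left out (0 without Smo/Smo replicate 2, 1 without SmoA2 replicate 1 or Smo/Smo replicate 3) and 1 at an adjusted p under 0.01. Smo/Smo against Wildtype gave 0 in all 21 alternatives. The number of all genes called was 515 (187 to 776 over the alternatives), 71 (19 to 162) and 490 (142 to 809) in SmoA2 against Wildtype, Smo/Smo against Wildtype and SmoA2 against Smo/Smo. Another scaling moved the median of all genes by less than 0.1 on the log2 scale. Among the 7 members and the named pathway genes, no called gene changed sign, and the signs of other genes were not followed. Only uncalled values near 0 did, and the cause was not tested. For Reln in SmoA2 against Wildtype they were 0.0242 with quantile normalization, 0.006 centred on array medians, 0.0235 with Xist as a covariate, 0.0079 with both arrays left out and -0.0674 to 0.0374 with 1 array left out. For Reln in Smo/Smo against Wildtype they were 0.0151 with Xist, 0.0182 with both left out and -0.0791 to 0.0257 with 1 left out. For Reln in SmoA2 against Smo/Smo they were -0.0933 on the more variable probe set, -0.0408 with the mean of probe sets, -0.0103 with both left out and -0.0103 to 0.0486 with 1 left out. With the mean of probe sets, SmoA2 against Wildtype gave 0.0036 for Vldlr and -0.0045 for Lrp8. Foxc1 in Smo/Smo against Wildtype gave 0.001 with quantile normalization. With 1 array left out, Lrp8 in SmoA2 against Wildtype ran from -0.0072 to 0.1648, Vldlr in SmoA2 against Smo/Smo from -0.0016 to 0.0407 and Pik3cg there from -0.0737 to 0.1192. In Smo/Smo against Wildtype Adamts3 ran from -0.0064 to 0.102 and Foxc1 from -0.024 to 0.0244. Of changes of 0.5 the simulated fit missed many, so an uncalled gene may still differ.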
